A study of Mus musculus with 15 samples.

Results

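Spleens of injured mice that received extracellular vesicles of mesenchymal stem cells (MSC-EVs) were compared with spleens of injured mice that did not, with both injuries pooled. The comparison used 12 of the 15 samples of the series, 6 with and 6 without MSC-EVs, and covered the 547 endogenous genes among the 561 genes of an nCounter immunology panel, of which 418 had enough counts to be tested. The mice were female C57BL/6J and 6 to 8 weeks old. All 12 samples came from mice given 9 Gy of radiation. The WBIR mice had whole-body ionising radiation alone, and the RCI mice had the same dose combined with a contact burn of 20% of the total body surface. Each injury had 3 samples with MSC-EVs, injected into a vein 72 hours after injury, and 3 without. The vesicles came from bone marrow MSCs of the same mouse strain, grown in culture. Spleens were taken 48 hours after the injection and their red blood cells lysed, and the injury entered the model as a covariate, so that treated samples were set against untreated samples of the same injury. PBS is the labels' vehicle for the untreated RCI mice, and in the study's description saline was given to untreated mice of both injuries. It could not be settled whether the 3 samples of a group were 3 mice, so the p-values measure the spread between samples, which may be technical. The remaining 3 samples, from uninjured Sham mice, entered no test and are cited only as a level to compare with.

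Mesenchymal stem cells can dampen immune responses, and their vesicles carry proteins and RNA that can be taken up by other cells. The spleen holds lymphocytes, macrophages and stromal cells, and its lymphocytes are among the cells most sensitive to radiation. In immune cells, cytokine receptors signal through Janus kinases (JAK) and STAT transcription factors. The SOCS proteins, among them SOCS1 and CISH, are induced by this signalling and switch it off again. Chemokine receptors steer leukocytes to tissues where their ligands are made, and CXCR4 keeps blood cell precursors and lymphocytes in the marrow and in lymphoid organs through its ligand CXCL12.

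Total counts of the 12 samples ranged from 90127 in WBIR+MSC-EVs replicate 1 to 598872, with a median of 339236. In the shallowest sample 63 of the tested genes had fewer than 20 counts. A further library, RCI replicate 3, stood apart from the other 2 untreated RCI samples. It was higher in genes of inflammation, such as *Ccl2* (552 raw counts against 31 and 38). It was lower in others, such as the macrophage gene *Cd163* (160 against 822 and 833) and the chemokine receptor gene *Ccr3* (286 against 1905 and 1422). Values that moved most when it was left out are given both ways. RCI+MSC-EVs replicate 3 also stood below the other treated RCI samples in *Cd163* (516 against 1220 and 912) and *Ccr3* (944 against 1901 and 1565). In *Ccl2* it had 45 against 36 and 11. Across genes its deviations from the group mean correlated at 0.584 with those of RCI replicate 3. Leaving out RCI replicate 3 alone keeps this treated library in. Counts were divided by the geometric mean of the panel's 14 reference genes, and these scaled counts are the unit of every level below. The reference genes differed little with treatment. Relative to their own mean they differed between treated and untreated samples from -0.23 (*Alas1*) to 0.28 (*Polr2a*) on the log2 scale. Between Sham and injured samples they differed far more, from -2.89 (*G6pdx*) to 1.78 (*Polr1b*), Sham minus injured. Levels set against Sham are therefore less certain than those set between treated and untreated samples. Markers of T cells, B cells and macrophages, the main cells of a spleen, were present in every sample. The summed scaled counts of 17 T cell genes were 3441 to 4411 in WBIR and 3460.3 to 5537 in RCI, against 18476 to 37159 in Sham. Those of 12 macrophage and monocyte genes were 23881 to 40237 in WBIR and 41628 to 47319 in RCI, against 3740.4 to 7216 in Sham. In such bulk RNA, fewer cells of a type and less RNA per cell cannot be told apart.

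The genes with the smallest p between treated and untreated spleens were *Socs1*, *Cxcr4* and *Cish*, each higher with MSC-EVs. The model with injury as a covariate put the differences at 1.41, 1.75 and 1.61-fold. None passed the test after correction. With the quasi-likelihood F-test of edgeR, adjusted by Benjamini-Hochberg, 0 of 418 genes were called (0%), and these 3 genes shared the lowest adjusted p, 0.105. DESeq2 with the same design called 3 of the 410 genes it gave an adjusted p (0.732%), and they were the same 3. limma called 0. Before adjustment 25 genes had an edgeR p under 0.05, 22 higher with MSC-EVs (5.26%) and 3 lower (0.718%). With each treated sample matched to the untreated sample of its replicate number, edgeR called 1 gene, *Cxcr4* (adjusted p 0.0367), and 43 genes had an unadjusted p under 0.05, of which 40 were higher. The labels do not state such a pairing. That call was lost with TMM scaling, where the matched test called 0 genes (smallest edgeR adjusted p 0.106). Without RCI+MSC-EVs replicate 1 the unmatched test also called *Cxcr4* alone, with an edgeR adjusted p of 0.0450. Without RCI replicate 3 the log2 fold changes were 0.53 for *Socs1*, 0.82 for *Cxcr4* and 0.68 for *Cish*, and edgeR called 0 genes, with 28 at an unadjusted p under 0.05.

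Most genes differed little. The log2 fold change (log2FC, treated over untreated) ranged from -1.20 (*Ccl2*) to 1.02 (*Muc1*), and in 299 genes (71.5%) it was under 0.25 in size. Its 95% interval had a median half-width of 0.45. For 356 genes (85.2%) that interval lay within a 2-fold change in either direction, and for 180 within 1.5-fold. In the other 62 genes the interval reached a 2-fold change. Treated samples had the higher level in 296 genes and the lower in 122, with a median log2FC of 0.10. This split depended on the scaling. Scaling over the tested genes (TMM) shifted the median by -0.13 to -0.02, with 187 genes higher and 231 lower. The split at an unadjusted p under 0.05 became 11 higher and 6 lower in place of 22 and 3. With scaling by the median of ratios it was 11 and 7. Fold changes below are relative to the reference genes, so that 0.10 is the value of the median gene. Against that median, *Socs1* was higher by 0.40, *Cxcr4* by 0.70 and *Cish* by 0.58 on the log2 scale, and with TMM scaling their log2FC values were 0.35, 0.67 and 0.54.

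**Figure D1:**
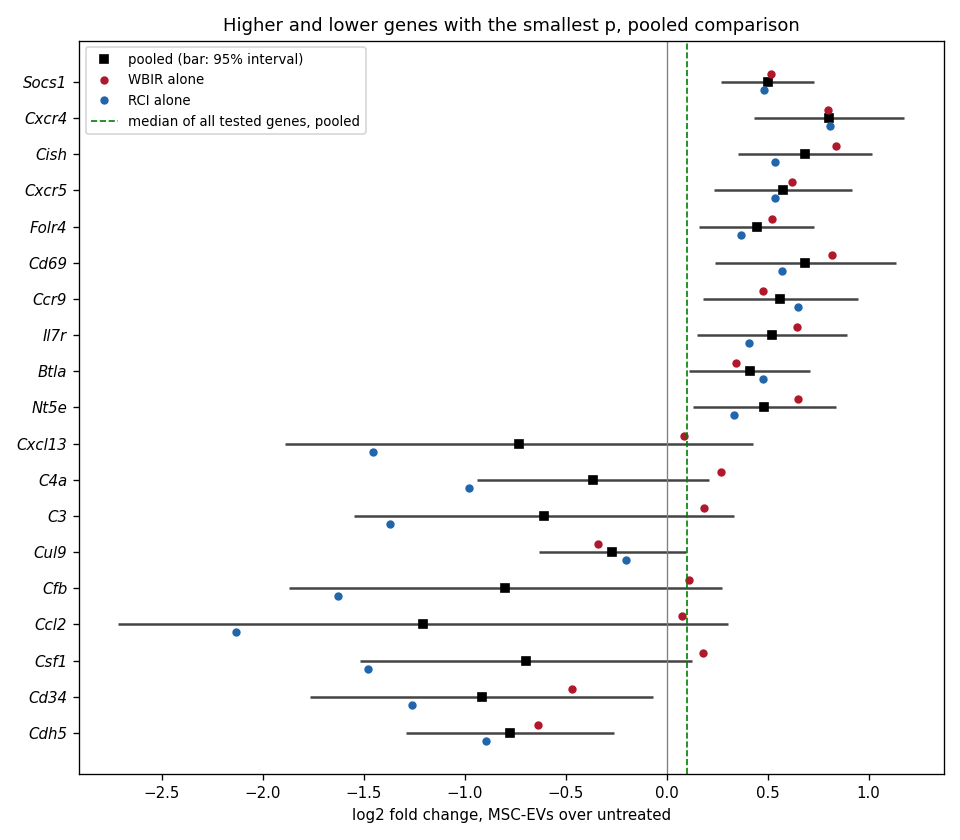
The 10 higher genes and 9 of the 10 lower genes with the smallest p in the pooled comparison, with the log2 fold change of MSC-EVs over untreated on the horizontal axis (squares, with bars for the 95% interval; n = 6 samples against 6) and the values of each injury alone (circles, 3 against 3). All 10 higher genes have values above 0 in both injuries, while *Cxcl13*, *C4a*, *C3*, *Cfb*, *Ccl2* and *Csf1* lie below 0 in RCI and above 0 in WBIR. The genes were chosen by their pooled p in these same samples, which favours the same sign in both injuries.

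Both *Socs1* and *Cish* encode feedback inhibitors of cytokine signalling, and *Cxcr4* ranked between them by p. *Socs1*, which encodes a protein that binds and blocks the Janus kinases, had 174, 159 and 211 scaled counts in the 3 WBIR samples and 236, 255 and 285 in WBIR+MSC-EVs. RCI samples had 301, 301 and 333, and RCI+MSC-EVs samples 392, 478 and 439.5. In both injuries all treated samples lay above all untreated ones, although the level itself was higher after RCI than after WBIR, and Sham samples had 156, 261 and 187. The pooled log2FC was 0.50 ± 0.10 (SE; 95% interval 0.27 to 0.73; edgeR adjusted p 0.105), with 0.52 ± 0.16 in WBIR and 0.48 ± 0.15 in RCI.

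*Cish*, which encodes the inhibitor induced by STAT5 downstream of interleukin receptors, had 57.9, 48.9 and 57.4 scaled counts in WBIR and 119.6, 86.3 and 92.4 in WBIR+MSC-EVs. In the burned mice it had 86.7, 52.7 and 65.9 without and 92.3, 107 and 99.4 with MSC-EVs. Treated and untreated samples did not overlap in either injury, and 2 of the 3 Sham samples (43.7, 99.6 and 50.6) lay at or below the untreated level. The pooled log2FC was 0.68 ± 0.15 (95% interval 0.35 to 1.02; edgeR adjusted p 0.105).

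*Ptpn2*, which encodes a phosphatase that removes the activating phosphate from JAK and STAT proteins, showed the same lack of overlap with a smaller difference. It had 155, 166 and 156 scaled counts in WBIR and 175, 192 and 202 with MSC-EVs, and 204, 201 and 178 in RCI and 235, 217 and 208 with MSC-EVs. Its log2FC of 0.22 ± 0.09 (edgeR adjusted p 0.779) was 0.08 with TMM scaling.

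Of the 16 JAK, STAT and regulator genes tested, 9 were higher and 7 lower with MSC-EVs, or 5 and 11 with TMM scaling and 11 and 5 without RCI replicate 3. Their median log2FC was 0.06 against 0.10 for all tested genes, and edgeR called 0. *Stat5a* was at -0.08 and *Stat5b*, its close relative, at 0.28, and the kinases *Jak1*, *Jak2*, *Jak3* and *Tyk2* had values from -0.04 to 0.12. *Socs3*, the inhibitor of interleukin-6 signalling, was at -0.29 ± 0.32, with 0.13 in WBIR and -0.69 in RCI, and without RCI replicate 3 it was 0.02 pooled and -0.09 in RCI. The 20 genes of the interferon response had a median of -0.01, with 8 higher and 12 lower, or 4 and 16 both with TMM scaling and without RCI replicate 3.

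The 250 bases before the start of the 3 genes with the smallest p are printed as RefSeq gives them for assembly GRCm38.p6, on the strand of the gene and from 5′ to 3′. They were searched, on both strands, for the STAT half-site pair TTCNNNGAA, the interferon response motif GAAANNGAAA, the GC box GGGCGG and the TATA box TATAAA. Capitals mark the GC boxes and the interferon response motifs. *Socs1* lies on the minus strand (chr16:10785537-10785786), as does *Cxcr4* (chr1:128592300-128592549), and *Cish* lies on the plus strand (chr9:107296409-107296658).
Socs1: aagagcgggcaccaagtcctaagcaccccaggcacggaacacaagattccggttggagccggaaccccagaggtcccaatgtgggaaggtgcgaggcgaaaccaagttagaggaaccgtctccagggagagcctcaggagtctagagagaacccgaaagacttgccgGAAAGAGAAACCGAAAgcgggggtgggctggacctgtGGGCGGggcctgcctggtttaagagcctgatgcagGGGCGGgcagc
Cxcr4: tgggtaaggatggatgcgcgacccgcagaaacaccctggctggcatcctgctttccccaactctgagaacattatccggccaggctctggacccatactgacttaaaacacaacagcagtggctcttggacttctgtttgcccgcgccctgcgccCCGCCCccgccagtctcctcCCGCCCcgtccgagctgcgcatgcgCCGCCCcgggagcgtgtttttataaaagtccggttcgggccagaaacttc
Cish: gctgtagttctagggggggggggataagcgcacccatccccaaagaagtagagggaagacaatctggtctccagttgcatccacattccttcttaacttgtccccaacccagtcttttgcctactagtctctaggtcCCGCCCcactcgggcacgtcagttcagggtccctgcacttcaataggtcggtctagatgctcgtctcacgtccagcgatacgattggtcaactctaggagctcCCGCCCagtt
The *Socs1* sequence held 2 overlapping matches to the interferon response motif, which 2.98% of the 32851 promoters of the same length hold, and the other 2 sequences held 0. The STAT motif had 0 matches in all 3 sequences, against a match in 7.02% of promoters. The GC box had 2 matches in *Socs1*, 3 in *Cxcr4* and 2 in *Cish*, and 32.7% of promoters hold it. The TATA box had 2 overlapping matches, 1 on each strand, in *Cxcr4* and 0 in the other sequences (12.4% of promoters). The matches describe the letters alone.

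Among chemokine receptors, all 15 tested genes had a higher level with MSC-EVs under the reference gene scaling, and 12 a higher and 3 a lower one with TMM or median-of-ratios scaling and also without RCI replicate 3. Their median log2FC was 0.23, against 0.10 for all genes, with values from 0.10 (*Cx3cr1*) to 0.80 (*Cxcr4*). Without both RCI replicate 3 and WBIR+MSC-EVs replicate 1 the count was 10 higher and 5 lower. edgeR called 0 of them, and 3 had an unadjusted p under 0.05, each higher. Of all 418 tested genes, 296 were higher under the reference gene scaling, and 22 were higher at that threshold (5.26%).

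*Cxcr4* had 122, 129 and 138 scaled counts in WBIR and 236, 183 and 260.3 in WBIR+MSC-EVs, without overlap. RCI samples had 113, 182 and 158 and RCI+MSC-EVs samples 179.9, 276 and 337, where replicate 1 of the treated samples lay within the untreated range. The log2FC was 0.80 ± 0.17 (95% interval 0.43 to 1.18; edgeR adjusted p 0.105), and 0.80 ± 0.26 in WBIR beside 0.81 ± 0.25 in RCI. With replicates matched it was 0.79 ± 0.11 (edgeR adjusted p 0.0367), a call that was lost with TMM scaling. Treated spleens stayed far from the Sham level of 2650.2, 2912 and 3704 scaled counts.

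*Cxcr5*, the receptor that guides B cells into follicles, had 36.7, 30.0 and 31.5 scaled counts in WBIR and 61.4, 44.4 and 48.3 with MSC-EVs. In RCI it had 32.5, 38.2 and 30.1 without and 37.8, 55.6 and 52.6 with MSC-EVs, and replicate 1 of the treated samples overlapped the untreated ones. Its log2FC was 0.58 ± 0.16 (edgeR adjusted p 0.328). *Ccr9*, which directs T cells to the thymus and the gut, had 31.1, 43.4 and 49.0 scaled counts in WBIR and 71.1, 42.6 and 63.4 with MSC-EVs. RCI samples had 30.5, 38.2 and 29.4 *Ccr9* counts and RCI+MSC-EVs samples 45.2, 54.3 and 53.8, without overlap. Its log2FC was 0.56 ± 0.18 (edgeR adjusted p 0.404). Of the ligands, *Cxcl12*, which binds CXCR4, had a log2FC of -0.17 ± 0.36 (edgeR unadjusted p 0.651), with 0.40 in WBIR and -0.73 in RCI, and was 0.09 without WBIR replicate 1 and -0.08 without RCI replicate 3. *Cxcl13*, the ligand of CXCR5, was at -0.73 ± 0.53, and *Ccl25*, the ligand of CCR9, at 0.23 ± 0.19.

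**Figure D2:**
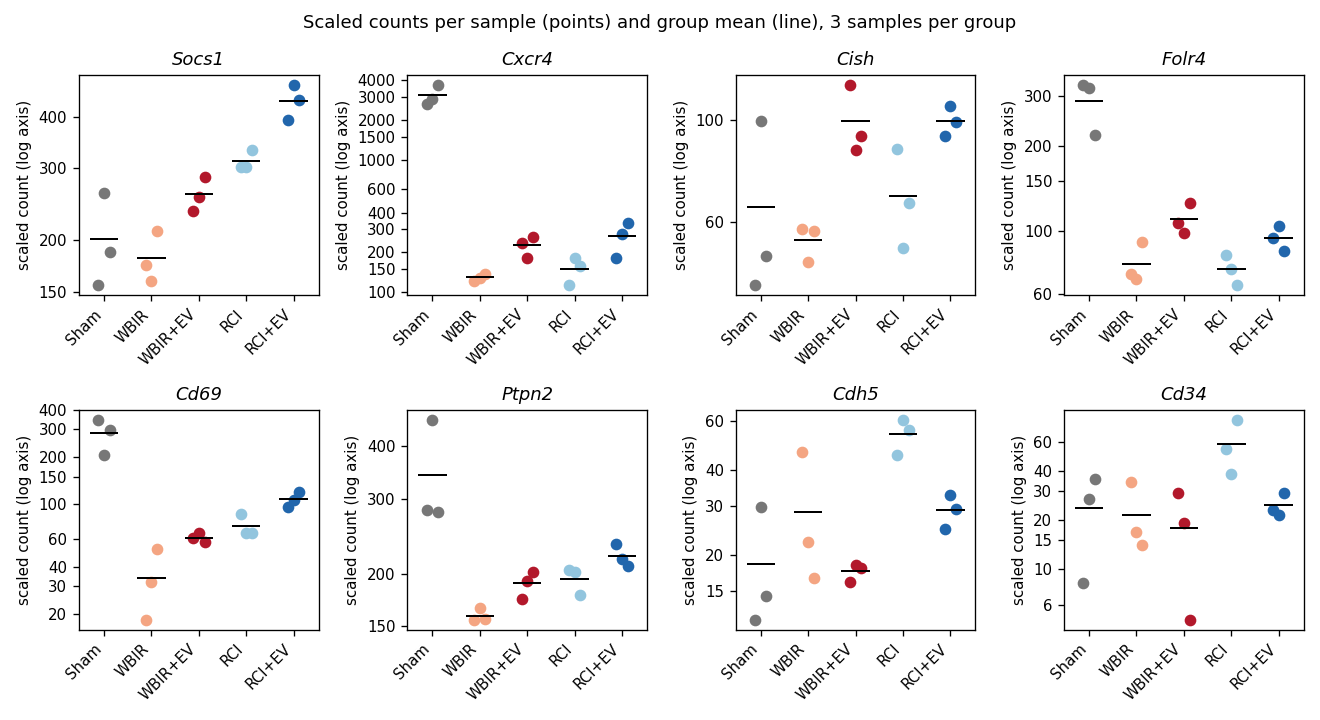
Scaled counts per sample (points, logarithmic axis) and group means (lines) of 8 genes in the 5 groups, with 3 samples each; WBIR+EV and RCI+EV are the groups with MSC-EVs. In *Socs1*, *Cish*, *Folr4*, *Cd69* and *Ptpn2* all treated samples lie above all untreated ones of the same injury, while *Cxcr4*, *Folr4* and *Cd69* stay below the Sham samples.

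*Cd69*, an early activation marker that holds lymphocytes in tissue, had 18.4, 32.3 and 51.8 scaled counts in WBIR and 61.4, 65.4 and 57.4 with MSC-EVs. In RCI it had 86.7, 65.8 and 65.9 without and 96.9, 107 and 120.4 with MSC-EVs. All treated samples lay above the untreated samples of their injury, and below Sham (347, 207 and 298). The log2FC was 0.69 ± 0.21 (edgeR adjusted p 0.391).

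*Folr4*, an older name of *Izumo1r*, which encodes folate receptor 4 of regulatory and anergic T cells, had 70.7, 67.8 and 91.6 scaled counts in WBIR and 107, 98.7 and 126 in WBIR+MSC-EVs. RCI samples had 82.7, 73.7 and 64.6 and RCI+MSC-EVs samples 95, 105 and 85.3. The groups lay apart in both injuries, by narrow gaps, with a log2FC of 0.45 ± 0.13 (edgeR adjusted p 0.391). *Il7r*, the receptor of the survival cytokine interleukin-7, had 201, 208 and 212 scaled counts in WBIR and 365, 206 and 403 with MSC-EVs, where replicate 2 stayed at the untreated level. In RCI it had 300.4, 344 and 269 without and 353, 506 and 349.5 with MSC-EVs, without overlap. Its log2FC was 0.52 ± 0.17 (edgeR adjusted p 0.447).

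Genes without overlap in both injuries numbered 5 in the higher direction (1.2%), *Cd69*, *Cish*, *Folr4*, *Ptpn2* and *Socs1*, and 0 in the lower (0%). With total-count scaling there were 3. A further 2 genes lay apart in both injuries with opposed signs. In all, 38 of the 418 tested genes lay apart in WBIR and 45 of 418 in RCI. With 3 samples against 3, groups can lie apart with no effect, so a lack of overlap in a single injury carries little weight.

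Surface molecules that tune T cell help followed. *Btla*, an inhibitory receptor of T and B cells, was at 0.41 ± 0.14, the ecto-enzyme *Nt5e* (CD73), which makes adenosine, at 0.48 ± 0.16, the costimulatory receptor *Tnfrsf4* (OX40) at 0.44 ± 0.16 and the ligand *Icosl* at 0.55 ± 0.20, each with an unadjusted p under 0.05 in edgeR and none called. In the list of checkpoint and costimulation genes to which *Btla*, *Tnfrsf4* and *Icosl* belong, 13 of 14 tested genes were higher and 1 lower (*Cd274*, the gene of PD-L1, -0.20), with a median of 0.28, or 11 and 3 with TMM scaling. Without RCI replicate 3 *Cd274* was at 0.10, all 14 were higher and the median was 0.19. *Icosl* differed most in WBIR, where it had 45.2, 48.9 and 50.9 scaled counts without and 126, 80.8 and 65.2 with MSC-EVs. In RCI the samples had 81.8, 76.4 and 58.2 without and 83.0, 107 and 69.0 with MSC-EVs, and overlapped. Of 13 regulatory and anti-inflammatory genes 11 were higher and 2 lower, with a median of 0.21, or 9 and 4 with TMM scaling. They included *Ikzf2* (0.35 ± 0.16) and *Foxp3* (0.30 ± 0.24), transcription factors of regulatory T cells, and *Ahr* (0.48 ± 0.32), the aryl hydrocarbon receptor, which was at 0.30 without RCI replicate 3. The lowest member was *Irak3* (-0.51), which was at 0.32 without that library. Leaving it out gave 12 higher and 1 lower (pooled median 0.23), while the median in RCI went from 0.24 to -0.04.

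Markers of T and B cells were mostly on the same side, while NK and cytotoxic genes were split (8 higher and 5 lower, median 0.05). All 16 tested T cell genes were higher with MSC-EVs, or 14 higher and 2 lower with TMM scaling. Their median log2FC was 0.27, with values from 0.10 (*Cd7*) to 0.52 (*Il7r*), and 0.15 without RCI replicate 3. By injury, the T cell median was 0.14 in WBIR and 0.41 in RCI, against 0.11 for all tested genes in both. Without RCI replicate 3 the T cell median in RCI was 0.22. *Cd3e*, a chain of the T cell receptor complex, had 459, 403 and 316 scaled counts in RCI and 570.2, 662 and 509.6 with MSC-EVs, without overlap. In WBIR it had 324, 297 and 415 without and 346, 364 and 437 with MSC-EVs, where the groups overlapped, and the pooled log2FC was 0.36 ± 0.14 (edgeR adjusted p 0.779). The summed counts of the 17 T cell genes were 3933 to 4958 in WBIR+MSC-EVs and 5546 to 7336 in RCI+MSC-EVs. The latter range lay above that of RCI, and the former overlapped that of WBIR. Of 10 B cell genes 8 were higher and 2 lower (median 0.23), with 6 and 4 without WBIR+MSC-EVs replicate 1 and 7 and 3 (median 0.11) without RCI replicate 3. The sums of 13 B cell genes overlapped in both injuries, with 1591 to 1994 in WBIR, 1723 to 1798 in WBIR+MSC-EVs, 1169 to 1846 in RCI and 1597 to 2234 in RCI+MSC-EVs, and with 20185 to 24028 in Sham. The part of these markers in the levels of *Cxcr5*, *Cd69*, *Il7r* or the other lymphocyte genes was not tested.

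**Figure D3:**
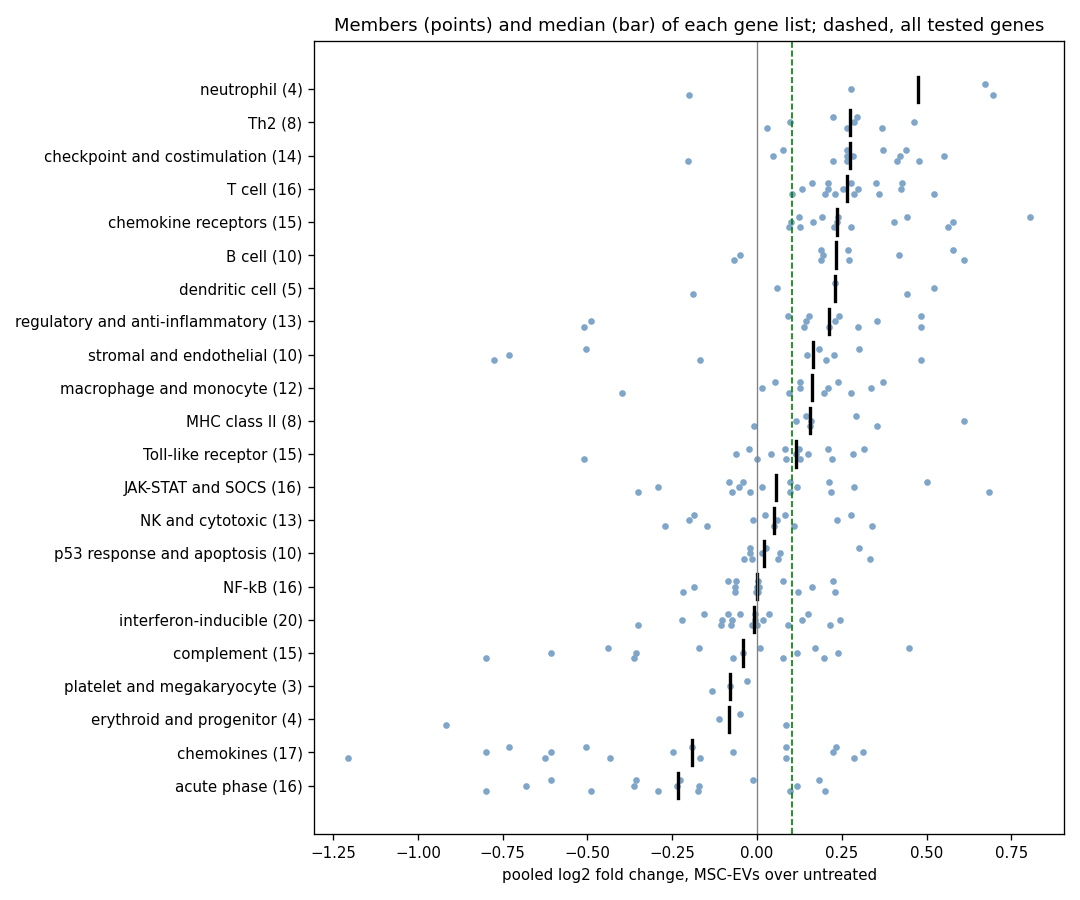
Pooled log2 fold change of MSC-EVs over untreated (horizontal axis) for the tested members of 22 gene lists (points; number of members in parentheses) with the median of each list (bars) and the median of all 418 tested genes (dashed line, 0.10). The 16 T cell genes and 15 chemokine receptors all lie above 0 (14 and 12 of them with TMM scaling), and the chemokine and acute phase lists have the lowest medians, -0.19 and -0.23.

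With the reference gene scaling, fewer genes were lower than higher with MSC-EVs, a split that turned with TMM scaling. *Cdh5*, which encodes the endothelial adhesion protein VE-cadherin, had the smallest p among the lower genes. RCI samples had 45.3, 60.6 and 55.7 scaled counts and RCI+MSC-EVs samples 24.9, 32.8 and 29.2, without overlap. WBIR samples had 46.6, 22.2 and 16.7 and WBIR+MSC-EVs samples 16.2, 18.5 and 18.1, a range that overlapped the untreated one. The log2FC was -0.78 ± 0.24 (95% interval -1.29 to -0.26; edgeR adjusted p 0.391) at 5 to 87 raw counts per sample. The endothelial genes *Pecam1* (0.15), *Icam2* (0.20) and *Vcam1* (0.23) had values above 0, and the 10 stromal and endothelial genes had 6 higher and 4 lower members (median 0.17). Without RCI replicate 3 the list had 5 of each (median 0.01), *Vcam1* was at -0.02 and *Pecam1* at 0.05, while the log2FC of *Cdh5* was -0.74 (edgeR unadjusted p 0.0137).

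*Cd34*, a surface protein of blood cell precursors and of endothelium, had 54.2, 38.2 and 82.5 scaled counts in RCI and 23.1, 21.5 and 29.2 with MSC-EVs, without overlap. In WBIR it had 33.9, 16.7 and 13.9 without and 29.1, 19.1 and 4.83 with MSC-EVs, and the lowest sample held 8 raw counts. Its log2FC was -0.92 ± 0.39 (edgeR adjusted p 0.779), and -0.71 without RCI replicate 3. *Cul9*, a member of the cullin family, was at -0.27 ± 0.17 (edgeR unadjusted p 0.135).

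The remaining genes of the 10 lowest by p encode a growth factor, chemokines and complement proteins, and their log2FC was below 0 in RCI alone. *Csf1*, the macrophage growth factor, had 83.7, 138 and 266 scaled counts in RCI and 50.7, 72.0 and 53.8 in RCI+MSC-EVs. *Ccl2*, the chemokine that recruits monocytes, had 30.5, 50 and 353 without and 33.2, 13.9 and 52.6 with MSC-EVs. *Cfb*, which encodes complement factor B, had 188, 188 and 1155 without and 159.6, 145 and 193 with MSC-EVs. In all 3 genes replicate 3 was the highest of the RCI samples, and in *Ccl2* and *Cfb* the other 2 untreated samples lay within the treated range. The pooled log2FC was -0.70 ± 0.38 for *Csf1*, -1.20 ± 0.69 for *Ccl2* and -0.80 ± 0.49 for *Cfb*, with edgeR adjusted p of 0.896 each. Without RCI replicate 3 these values were -0.35, -0.09 and -0.03. Within RCI, *Csf1* stayed at -0.91 ± 0.34 (edgeR unadjusted p 0.0211) without that library, against -1.48 ± 0.41 with it. For *C3*, the central complement component, the value went from -0.61 ± 0.43 to -0.13, and for *Cxcl13* from -0.73 ± 0.53 to -0.16.

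*C4a*, whose probe may also count the near-identical *C4b*, was likewise lower in RCI with and without this library. It had 658, 669 and 782 scaled counts in RCI and 374, 352 and 344 in RCI+MSC-EVs, without overlap, and 295, 170.1 and 249 in WBIR and 239, 416 and 201 in WBIR+MSC-EVs, with overlap. Its log2FC in RCI was -0.98 ± 0.27, and -0.90 ± 0.29 without RCI replicate 3.

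Lists of inflammatory genes also differed with this library. Of 16 acute phase genes 4 were higher and 12 lower with MSC-EVs, or 11 and 5 without RCI replicate 3. Their pooled median was -0.23, with 0.19 in WBIR and -0.69 in RCI, and the RCI median was -0.11 without that library. Of 17 chemokines 6 were higher and 11 lower (median -0.19), and 9 and 8 without RCI replicate 3 (median 0.02). *Il1b*, the gene of interleukin-1 beta, named here after its values were seen, had 81.8, 85.6 and 1016 scaled counts in RCI and 114, 128 and 222 with MSC-EVs. In WBIR it had 127, 52.3 and 97.2 without and 239, 208 and 106 with MSC-EVs. Its pooled log2FC turned from -0.23 ± 0.71 to 0.93 (edgeR unadjusted p 0.00625) when that library was left out. The 15 complement genes had 7 higher and 8 lower members (median -0.04), or 4 and 11 with TMM scaling. The 16 NF-kB pathway genes had 8 of each with a median of 0.00, which became 12 higher and 4 lower (median 0.17) without RCI replicate 3 and 3 higher and 13 lower with TMM scaling.

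The effect of MSC-EVs was then set side by side for the 2 injuries, which share no samples. In WBIR edgeR called 0 genes (smallest adjusted p 0.957), with 15 higher (3.59%) and 1 lower (0.239%) at an unadjusted p under 0.05. In RCI it called 0 (smallest adjusted p 0.540), with 14 higher (3.35%) and 12 lower (2.87%). With replicates matched, 24 genes in WBIR and 48 in RCI reached an unadjusted p under 0.05 and edgeR called 0. The log2FC had the same sign in both injuries in 250 of 418 genes (59.8%), of which 213 were higher and 37 lower in both. Across genes, which are not independent and share each sample's scaling, Pearson's r of the log2FC values was 0.000833 and Spearman's rho 0.085. The effects spread more widely in RCI (SD 0.42 across genes) than in WBIR (SD 0.26). Without RCI replicate 3 the SD of RCI was 0.27, r was 0.245 and rho 0.224.

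The genes with an unadjusted p under 0.05 in one injury were then looked up in the other. Of the 15 genes higher in WBIR, 12 were higher in RCI, with a median log2FC there of 0.33, and 4 reached that threshold in RCI too. Of the 14 genes higher in RCI, 13 were higher in WBIR, with a median there of 0.17. For comparison, 302 of 418 genes were higher in WBIR and 292 in RCI, with medians of 0.11 in both. Of the 12 genes lower in RCI, 2 were lower in WBIR, *Cdh5* and *Cd34*, and the median log2FC of the 12 in WBIR was 0.16. Without RCI replicate 3, 5 genes were higher and 9 lower in RCI at that threshold.

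**Figure D4:**
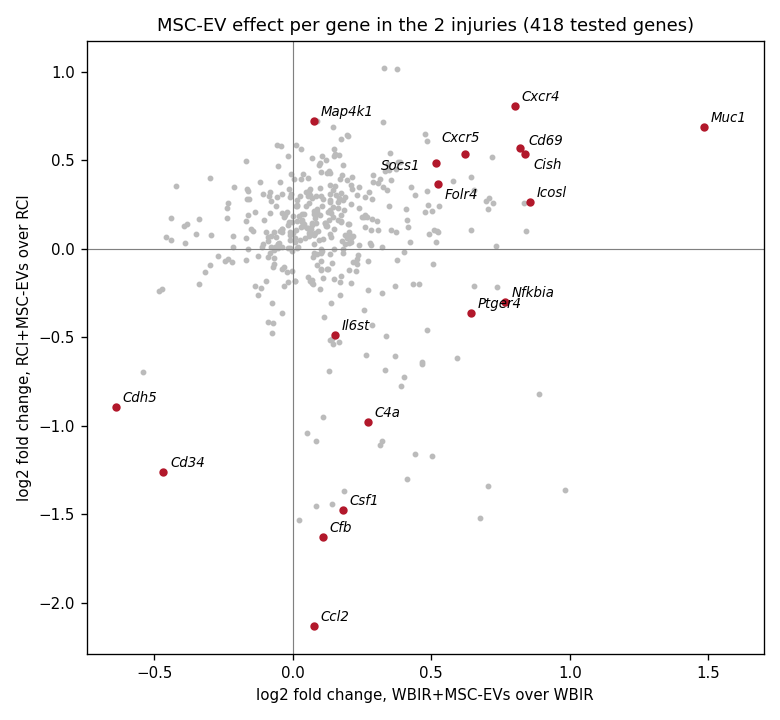
Log2 fold change of MSC-EVs over untreated in WBIR (horizontal axis) and in RCI (vertical axis) for the 418 tested genes, with genes of the text in red; each value compares 3 samples with 3. *Cxcr4*, *Socs1*, *Cish*, *Cxcr5*, *Cd69* and *Folr4* lie in the upper right, *Cdh5* and *Cd34* in the lower left, and *Ccl2*, *Cfb*, *Csf1* and *C4a* just right of 0 in WBIR and below 0 in RCI.

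The difference between the injuries was tested directly. edgeR called 0 of 418 genes (smallest adjusted p 0.993), and 12 had an unadjusted p under 0.05 (2.87%), 11 of them with the lower log2FC in RCI. With replicates matched there were 23 and edgeR called 0. The smallest p belonged to *C4a* (difference, RCI minus WBIR, -1.25 ± 0.38), followed by *Ptger4* (-1.0 ± 0.33) and *Il6st* (-0.64 ± 0.22). *Ptger4*, which encodes the prostaglandin E2 receptor EP4, had 32.5, 33.4 and 38.9 scaled counts in WBIR and 77.6, 50 and 43.5 with MSC-EVs, against 40.4, 42.1 and 43.5 in RCI and 31.4, 34.1 and 32.7 with MSC-EVs. Its groups lay apart in both injuries, in opposed directions. *Il6st*, the shared receptor chain of the interleukin-6 family, had 177, 207 and 189 scaled counts in WBIR and 217, 221 and 199 with MSC-EVs. In RCI it had 370.4, 482 and 416 without and 292, 348 and 264 with MSC-EVs, and only the RCI groups lay apart. For *Socs1* the difference was -0.03 ± 0.22 (95% interval -0.51 to 0.45), for *Cxcr4* 0.01 ± 0.36 (-0.79 to 0.80) and for *Cish* -0.30 ± 0.31 (-0.98 to 0.37), and these intervals include both equal and unequal effects.

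Of the 12 genes that the study names for these spleens, 11 were tested, 9 were higher and 2 lower with MSC-EVs, and their median log2FC was 0.50, or 0.26 without WBIR+MSC-EVs replicate 1. This count is no independent evidence, because the study picked the genes from these same samples. Besides *Socs1*, *Cxcr4*, *Cish* and *Ccr9*, *Map4k1* had an unadjusted p under 0.05. This kinase of T cell receptor signalling had 64.0, 73.7 and 57.6 scaled counts in RCI and 112, 111 and 98.2 with MSC-EVs, without overlap, and 73.5, 67.8 and 78.7 in WBIR and 74.3, 72.8 and 83.9 in WBIR+MSC-EVs, where the groups overlapped. Its pooled log2FC was 0.40 ± 0.15. *Nfkbia*, the inhibitor of NF-kB, lay apart in WBIR alone, with 247, 264 and 310.0 scaled counts without and 459, 443 and 495 with MSC-EVs. In RCI it had 211, 253 and 596 without and 223, 284 and 357 with MSC-EVs, and its pooled log2FC of 0.23 ± 0.28 became 0.57 without RCI replicate 3.

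*S100a8* and *S100a9*, which encode the calprotectin subunits of neutrophils, were at 0.67 ± 0.43 and 0.70 ± 0.45. In WBIR+MSC-EVs *S100a8* ranged from 862 to 4681 scaled counts within the group, and without WBIR+MSC-EVs replicate 1 the 4 tested neutrophil genes had 2 higher and 2 lower members (median 0.00) in place of 3 and 1 (median 0.48). *Camp*, a granule peptide gene, was under the count limit, with 2 to 11 raw counts in untreated and 2 to 92 in treated samples. *Pparg* (0.02 ± 0.19) and *Stat5a* (-0.08 ± 0.11) had differences within their standard error, and values of -0.12 and -0.14 without RCI replicate 3.

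The other lists were described in the same way, and edgeR called 0 genes in each. The 8 Th2 genes were all higher (median 0.28), or 6 higher and 2 lower both with TMM scaling and without RCI replicate 3 (median 0.13). Their smallest p was that of *Il4ra*, the interleukin-4 receptor (0.37 ± 0.19). Of 8 MHC class II genes 7 were higher (median 0.16), led by p by *H2-DMb2* (0.35 ± 0.19), and 4 were without RCI replicate 3. Of 12 macrophage and monocyte genes 11 were higher (median 0.16), or 6 with TMM scaling and 9 without RCI replicate 3 (median 0.07). *Msr1*, a scavenger receptor of this list, was at 0.37 ± 0.28, and at 0.05 without WBIR+MSC-EVs replicate 2. Of 15 Toll-like receptor genes 12 were higher (median 0.12), or 7 with TMM scaling and 10 without RCI replicate 3 (median 0.06), with *Tlr3* at 0.28 ± 0.17. The 5 dendritic cell genes had 4 higher members (median 0.23), or 3 both with TMM scaling and without RCI replicate 3 (median 0.10), and *Cd83*, an activation marker, went from 0.52 ± 0.28 to 0.32 without that library. Of 13 NK and cytotoxic genes 8 were higher (median 0.05), or 3 with TMM scaling, 4 without WBIR+MSC-EVs replicate 1 (median -0.23) and 6 without RCI replicate 3 (median -0.08), with *Il2rb*, a chain of the interleukin-2 receptor, at 0.24 ± 0.16. Of 10 p53 response and apoptosis genes 6 were higher (median 0.02), or 2 with TMM scaling and 4 without RCI replicate 3, with the death receptor *Fas* at 0.33 ± 0.15. The 3 platelet genes were lower (median -0.08, or -0.23 without RCI replicate 3), and *Ppbp* was at -0.13 ± 0.30, or 0.08 without WBIR replicate 1. The 4 erythroid and progenitor genes had 1 higher and 3 lower members (0 and 4 with TMM scaling, 2 and 2 without RCI replicate 3), with *Cd34* the lowest. In the NF-kB list *Traf6*, an adaptor of Toll-like receptor signalling, had the smallest p (0.22 ± 0.10).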

How the data were processed

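Spleen mRNA was assayed with the nCounter Mouse Immunology Panel, in which colour-coded barcodes are counted without amplification. The authors isolated RNA, hybridised it and analysed the counts with nSolver. The deposited table holds raw barcode counts, to judge by its whole numbers and by totals that differ 6.64-fold between samples. Its 8415 values include 0 zeros and go down to 1. No control probes or cartridge labels were used, and background was left in the counts. Symbols were taken from the table. In RefSeq (GRCm38.p6) 545 of them are current, 14 are older names and 2 had no match.

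Counts were scaled to the geometric mean of 14 reference genes. Of the endogenous genes, 418 reached an average of 20 counts across the 12 injured samples and were tested, and 129 did not. edgeR 4.0.16 under R 4.3.3 fitted injury and treatment (robust glmQLFit, then glmQLFTest, 9 residual degrees of freedom). Effects within an injury and their difference used 1 coefficient per group. All tests were two-sided, with Benjamini-Hochberg adjustment over the tested genes and calls at an adjusted p under 0.05. A standard error (SE) is |log2FC| divided by the square root of F. The dispersion was 0.0882, or a coefficient of variation of 29.7% between replicates. The scripts were tested on simulated data.

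Groups and replicate numbers came from the labels. The labels do not pair treated with untreated samples, and the main test did not pair them. In an alternative, samples with the same number were treated as pairs. Their deviations from the group mean correlated at 0.686, 0.421 and 0.288 in WBIR and at 0.277, 0.375 and 0.584 in RCI. Samples of unlike numbers correlated at -0.620 to 0.528 in WBIR and at -0.579 to 0.362 in RCI. All values of like numbers were thus positive, while those of unlike numbers had both signs. In each injury some unlike numbers correlated more than some like numbers, so these values do not settle whether the numbers mark pairs. Alternatives were other scalings and filters, all 15 samples in the fit, DESeq2 1.42.0, limma 3.58.1 (pseudocount 10), an unmoderated model (pseudocount 1), replicates as blocks and leaving out samples. Genes named are the 10 higher and 10 lower with the smallest p, those without overlap in both injuries, the 3 with the smallest p for the difference between injuries, the 12 the study names and the gene with the smallest p of each list. 1 gene that meets this rule is not reported here. *Muc1*, *Il1b* and further members of lists were named after their values were seen. The comparison and the lists were chosen with earlier results of these data known.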

Additional observations from a re-analysis of the deposited data

Results flagged for a closer look

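Among 78 sets of 6 treated or 6 untreated samples, over 39 named genes, 4 held a sample whose gap to its nearest neighbour was large against the range of the set; chance gives about 1 set in 20. In *Cfb* without MSC-EVs, RCI replicate 3 had 1155 scaled counts and its gap was 0.673 of the range. In *Nfkbia* without MSC-EVs, the same library had 596 scaled counts and a gap of 0.629. In *Cd34* with MSC-EVs, WBIR+MSC-EVs replicate 3 had 4.83 scaled counts and a gap of 0.764, and in *Cxcl13* it had 39.9 scaled counts and a gap of 0.634. The sets of 6 hold both injuries, so part of such a gap can be the difference between injuries.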

How the results depend on the processing

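The count of genes called in the pooled comparison was 0 in edgeR with each scaling and filter and with limma. It was 3 with DESeq2, 1 with the replicate block, 3 with the replicate block in DESeq2 and 0 with the replicate block and TMM scaling together, and ranged from 0 to 1 when samples were left out in turn (1 without RCI+MSC-EVs replicate 1). The block changed no other call. The unmoderated per-gene model at an unadjusted p gave 24 genes pooled, 17 in WBIR, 25 in RCI and 13 for the difference between injuries. In place of 25 genes at an unadjusted p under 0.05, there were 13 with all 15 samples in the fit, 15 with total-count scaling, 16 without RCI+MSC-EVs replicate 2, 43 with the replicate block and 28 (14 higher) with the block and TMM scaling. In RCI the count of 26 went to 16 with total-count scaling, 14 with all 15 samples, 48 with the block, 12 without RCI+MSC-EVs replicate 2, 14 on leaving out RCI replicate 3 and 50 on leaving out RCI replicate 1. In WBIR that of 16 went to 6 with total-count scaling and 7 without WBIR replicate 2. For the difference between injuries, 12 went to 23 with the block, 24 without RCI replicate 1 and 7 without WBIR replicate 2. The genes without overlap in both injuries numbered 3 with total-count scaling. Joining the block to TMM scaling or DESeq2, leaving out 2 libraries at once (RCI replicate 3 and WBIR+MSC-EVs replicate 1) and the settings other than TMM for lists were chosen after seeing the data. Among named genes, signs turned for *Ptger4* (0.14; TMM -0.0058, median of ratios -0.012, block with TMM -0.0027; -0.00051 to 0.22 with samples left out in turn), *Pparg* (0.02; TMM -0.089, median of ratios -0.093, total count -0.039, block with TMM -0.094, without both libraries -0.098; -0.12 to 0.082 with samples left out), *Cxcl12* (-0.41 to 0.087 with samples left out), *Ppbp* (-0.44 without both libraries, up to 0.0796 without WBIR replicate 1) and *S100a9* (-0.00496 without both libraries, up to 0.91 without WBIR+MSC-EVs replicate 3). The causes were not tested. With 3 samples per group and genes of few counts, 62 intervals reach a 2-fold change.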
